A study of Mus musculus with 9 samples.

Results

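Activated fibroblasts are the cells that lay down collagen in a scarring liver, and hepatic stellate cells (HSCs) are thought to be their main source. The comparison described here set fibroblasts sorted from fibrotic mouse livers, whichever of 2 injuries had caused the fibrosis, against quiescent HSCs of normal livers. Its members were picked by their labels and were all 9 of the 9 libraries in the series, namely 3 of HSCs, 3 of fibroblasts from livers injured with carbon tetrachloride (CCl4-fib) and 3 of fibroblasts from livers with non-alcoholic steatohepatitis (NASH-fib). The 6 fibroblast libraries were thus compared with the 3 HSC libraries, over 13651 tested genes of the 24453 genes listed.

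HSCs came from untreated wild-type mice and were separated by density gradient, without a fluorescence sort. CCl4-fib came from Col1a2-GFP Tg mice, in which the Col1a2 promoter drives GFP, after injection of CCl4 2 times per week for 8 weeks. NASH-fib came from the same transgene on an MC4R-KO background (MC-COL mice, which lack the melanocortin 4 receptor), males that were 8 weeks old when a 20-week course of Western diet began. All mice were C57BL/6J, and the ages of the other mice are not given in the sources used here. The paper does not give the sex of the other mice either. Both fibroblast groups were sorted as live CD45- GFP+ cells, so the activity of the Col1a2 promoter and the absence of CD45 (Ptprc) were part of the gate and are no findings. The same holds for lower levels of genes of CD45+ cells such as macrophages. The gate for GFP likewise selected against cells that do not express the transgene, so lower levels of hepatocyte and endothelial genes are no findings either. Each library was made from the pooled cells of 3 to 5 mice, so the spread between libraries is that between pools. The gradient or sort, the transgene and the injury all differ between HSCs and fibroblasts and cannot be told apart. These are bulk libraries, in which fewer cells of a type and less RNA per cell cannot be told apart either.

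In the normal liver, quiescent HSCs lie along the sinusoids, store vitamin A as retinyl esters and secrete growth factors for hepatocytes. After injury they lose the retinoid droplets, acquire a contractile cytoskeleton and secrete fibrillar collagens. Portal fibroblasts, mural cells of vessels and mesothelial cells also express the Col1a2 gene, and a Col1a2 reporter can label them too.

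Depth ranged from 3071070 to 5634273 reads on genes per library, and the values are read counts scaled by the authors to a common total, with no correction for gene length. The authors counted at most 3 reads per position, which can flatten abundant short transcripts. In at least 1 library, 15 of the genes named below had more than 3 reads per exonic base (3.01 to 5.81), namely Mfap5, Mfap4, Timp1, Spp1, Ccl7, Fos, Acta2, Dpt, Upk1b, Gpm6a, Fcna, Serpina3k, Cyp2e1, Col1a2 and Alb, so that their highest values can be too low. In the scaled values 3 reads are worth 2.38 to 4.37. All 3 HSC libraries carried the defining markers of their label, with values of 10235, 14894 and 7070.5 for Lrat and 9782, 7669.6 and 11068 for Reln, and all 6 fibroblast libraries carried those of theirs, with Col1a1 between 3738 and 11375 and Acta2 between 5300.2 and 8983. The knocked-out gene of the NASH model, Mc4r, had 0 reads in all 3 HSC and all 3 CCl4-fib libraries and 4, 13 and 0 reads in the 3 NASH-fib libraries, so that it does not check the labels. The second HSC library and the first NASH-fib library deviated from their groups together (r = 0.645 across genes) and share the label prefix 11-3. The first CCl4-fib library, which has the same prefix, did not deviate with them (r = -0.07 and -0.13). The third HSC library and the third NASH-fib library, whose prefixes differ, reached r = 0.51. By a chi-square of their reads per gene, the first NASH-fib library was nearer to the second HSC library (52.5) than to the other NASH-fib libraries (83.3 and 68.1). The second HSC library was in turn nearer to it than to the third HSC library (68.4), though not than to the first (46.2). This chi-square grows with depth and was not adjusted for it. The first NASH-fib and the second HSC library had 3289758 and 3071070 reads, against 5021156 and 4550212 in the other NASH-fib libraries. What these libraries share was not tested. The counts of called genes, and the fold changes of many named genes, are given below with and without them. The differences between the models for named genes are given with them only.

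Markers of other liver cells differed between the groups. The summed value of 20 hepatocyte markers was 41124, 48211 and 84119 across HSCs, 3626, 3366 and 5839.8 across CCl4-fib and 46019, 11783 and 50126 across NASH-fib. For 20 markers of sinusoidal endothelial cells the sum was 26835, 25045 and 36844 across HSCs, 691, 806 and 697 across CCl4-fib and 6874, 2154 and 7963 across NASH-fib. The macrophage and Kupffer cell markers summed to 7008, 9169 and 23549 across HSCs, 1646, 2359 and 1838 across CCl4-fib and 5732, 4381 and 9554 across NASH-fib. Every HSC library was thus above every CCl4-fib library for each of these 3 lists, while NASH-fib lay between them or overlapped the HSCs. By contrast, the mesothelial sum was 709 to 1973 in HSCs against 21324 to 37128 in the 6 fibroblast libraries, and the portal fibroblast sum was 1072 to 2639.6 against 11515 to 28524. Their part in the results below was not tested.

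**Figure D1:**
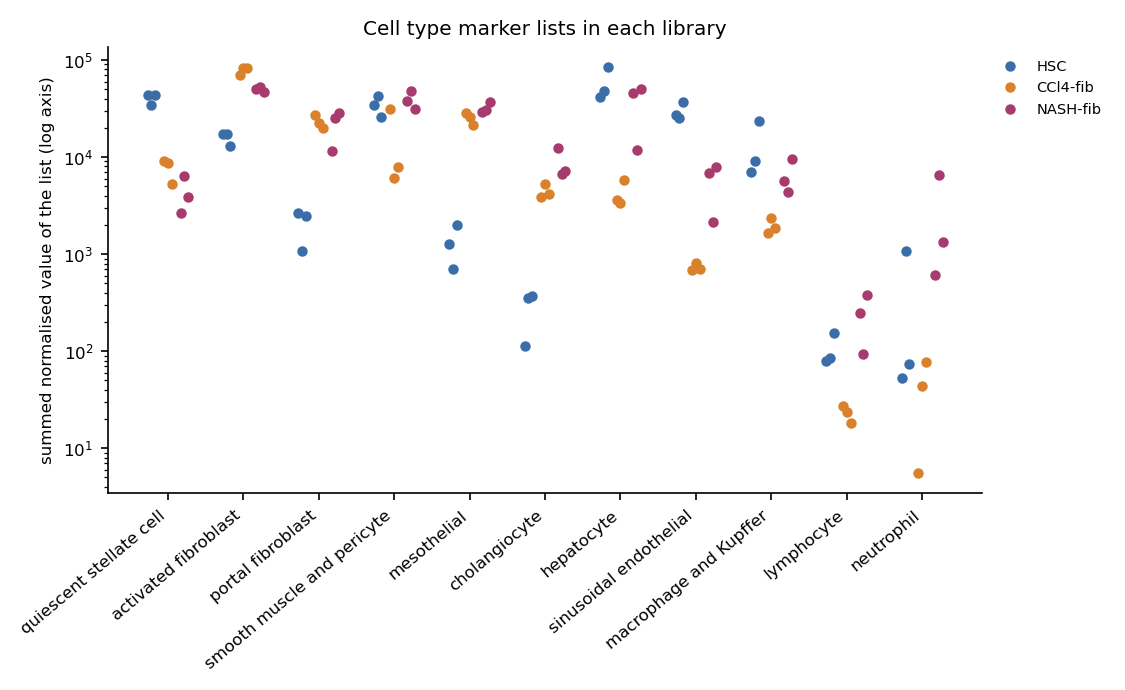
Summed normalised value of each cell type marker list (log axis) in each library, with 1 point per library coloured by group. The sinusoidal endothelial sum is 25045 to 36844 in HSCs and at most 7963 in fibroblasts, while the mesothelial sum is at most 1973 in HSCs and at least 21324 in fibroblasts.

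The pooled fibroblasts gained matrix, protease, contractile and immediate early genes and lost most genes that mark a quiescent HSC. Compared with HSCs, 1578 genes (11.6% of those tested) were higher in the pooled fibroblasts and 1187 (8.7%) were lower. A call required a change of 1 or more on the log2 scale with an adjusted p below 0.05, by limma with Benjamini-Hochberg adjustment, and each fibroblast group kept its own mean. The median log2 fold change was 3.17 among the genes that rose, or 2.77 when the 494 of them with at most 3 reads in every HSC library were set to the lowest fold that 3 reads allow. Among the genes that fell it was -2.61, against 0.09 over all genes tested. Without the first NASH-fib library 2385 genes were called higher and 1519 lower, and without it and the second HSC library 1979 and 1320. Leaving out the second HSC library alone gave 1329 higher and 915 lower. Blocking on the prefix of the library labels, which the groups share in part, left 870 higher and 470 lower, and a fit with 1 mean for all 6 fibroblast libraries left 1134 and 738. Among genes with a mean value of at least 100, 709 were higher and 670 lower. Of the 121 genes that a fixed rule picked to be named, 22 lost their call with the prefix as a block and 19 with 1 fibroblast mean. Values after ± are standard errors of the fit over 6 fibroblast and 3 HSC libraries.

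How far the change was shared by both injuries was read in 2 ways, from the overlap of the 6 fibroblast libraries with the 3 HSC libraries and from the test of NASH-fib against CCl4-fib, which uses no HSC library. Over all tested genes, 9.08% had all 6 fibroblast libraries above all 3 HSC libraries and 7.87% had all 6 below. Of the 1578 genes called higher, 1116 (70.7%) had no overlap between the 6 fibroblast and the 3 HSC libraries, and of the 1187 called lower, 844 (71.1%) had none. These genes were called from the same libraries, so their shares without overlap are descriptions and no separate evidence of sharing. The test between the models called 10.6% of all genes, and it called 310 (19.6%) of the genes that rose and 318 (26.8%) of those that fell. Among the 310, 231 were higher in CCl4-fib and 79 in NASH-fib, and among the 318, 300 were higher in NASH-fib and 18 in CCl4-fib. Most of these genes thus had the smaller change from HSCs in NASH-fib. These splits and the overlap counts were taken over all libraries only, not without the second HSC or the first NASH-fib library. The whole 95% interval of the difference lay within 1 log2 unit of 0 for 37 of the genes that rose (2.34%) and 37 of those that fell (3.12%), against 5.02% of all genes tested. For the median gene the interval reached 1.24 log2 units to either side, so that at this spread most genes could not be called alike in the models. In all, 628 genes changed and also differed. Counted afresh with 1 library left out, such genes numbered 304, 137 and 336 without the first, the second and the third CCl4-fib library. They numbered 411, 648 and 159 without the first, the second and the third NASH-fib library. For the HSC libraries the counts were 427, 564 and 588 in the same order. Leaving out the second HSC and the first NASH-fib library together gave 774.

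**Figure D2:**
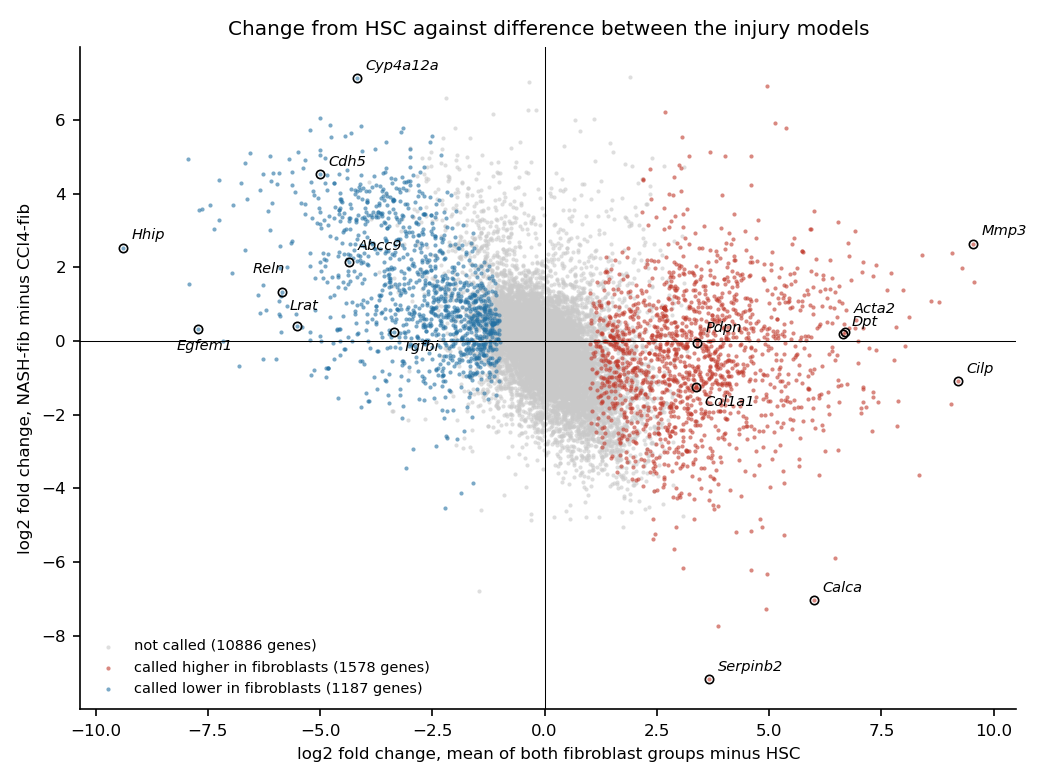
Each point is 1 of the tested genes, with the log2 fold change of the pooled fibroblasts over HSCs on the x axis and that of NASH-fib over CCl4-fib on the y axis, coloured by its call. Genes such as Dpt, Acta2, Pdpn, Lrat and Tgfbi lie near 0 on the y axis, whereas the called lower genes spread mostly upward and a tail with Calca and Serpinb2 lies far below 0.

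The gene lists that follow, 27 in all, are described by the number of members called and by their median log2 fold change, to be read beside the 11.6%, the 8.7% and the median of 0.09 for all genes. Housekeeping genes had 0 of 16 members called by limma in either direction (median 0.15), and 1 or 2 of them were called in other settings.

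**Figure D3:**
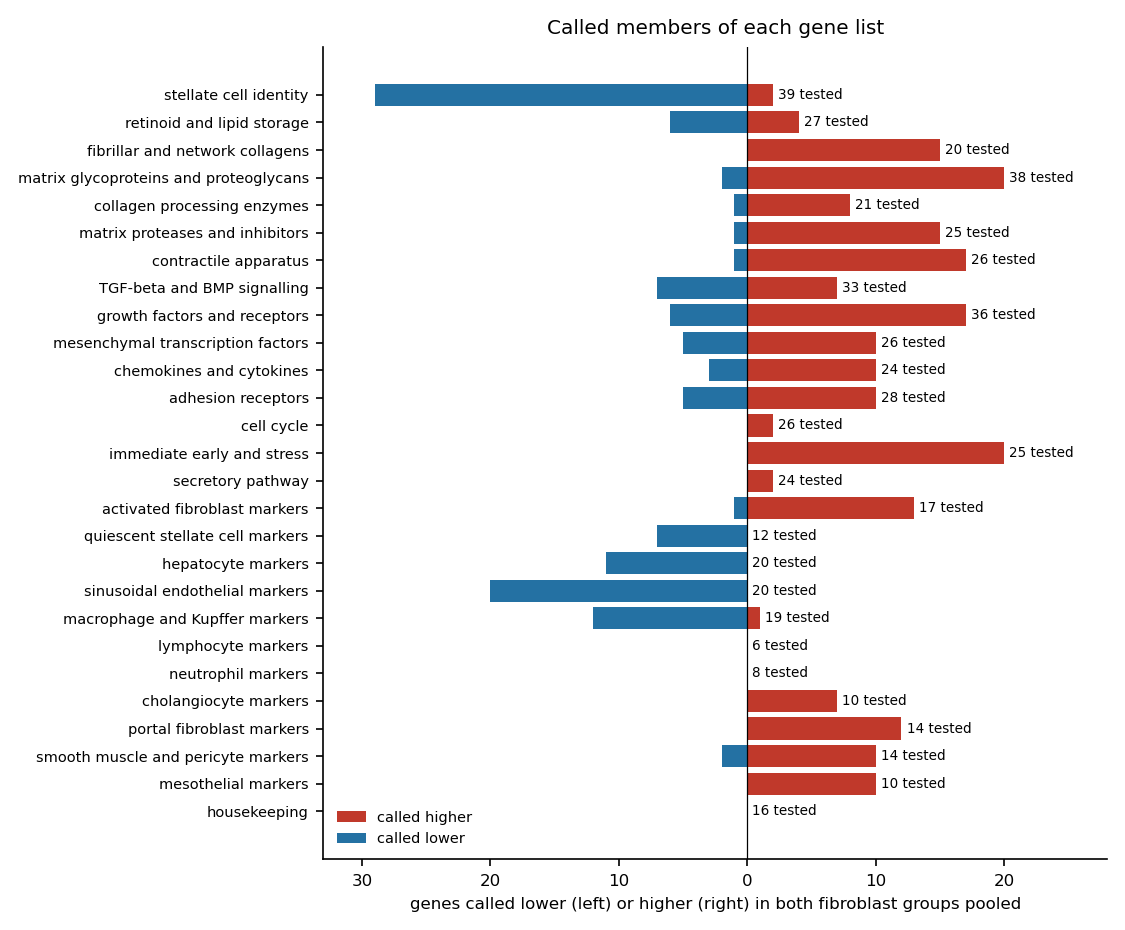
Number of members of each gene list called higher (bars to the right) or lower (bars to the left) in the pooled fibroblasts, with the number tested beside each bar. The stellate cell identity list has 29 of 39 tested members called lower, and the list of immediate early and stress genes has 20 of 25 called higher.

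Most collagens rose. Of 20 collagen genes tested, 15 were called higher and 0 lower (median log2 fold change 2.60), and 10 of the 20 were higher in CCl4-fib than in NASH-fib. Col1a1, the main fibrillar collagen chain of scars (NM_007742, mm10 chr11:94936224-94953042), had values of 599.7, 968 and 452 across HSCs, 8485, 11002 and 11375 across CCl4-fib and 4729, 4498 and 3738 across NASH-fib. The groups did not overlap, the log2 fold change was 3.37 ± 0.30 and the limma adjusted p was 3.78e-05. CCl4-fib was the higher of the fibroblast groups, by a log2 difference for NASH-fib minus CCl4-fib of -1.25 (95% interval -2.02 to -0.48). Col1a2, the partner chain whose promoter drove the sort, showed the same order with 1291, 2065 and 930.1 across HSCs, 12466, 15534 and 13945 across CCl4-fib and 7426, 5263 and 3860.5 across NASH-fib. This is a description only, and Col1a2 is itself a member of the list. The sort on its promoter can favour cells rich in other collagens such as Col1a1 too, and this was not tested. Col12a1, a collagen that decorates fibrils, had 1 read in each HSC library and 488, 466 and 510.4 as values in CCl4-fib against 277, 233 and 117 in NASH-fib, a ratio of 285 (95% counting interval 97.3 to 1381). Col15a1 of basement membranes rose from 3.51, 18.9 and 4.78 to between 116 and 544 (median 255) over the 6 fibroblast libraries, a log2 fold change of 4.92 ± 0.49 (adjusted p = 6.63e-05). Col8a2, a short-chain network collagen, rose from 7.01, 0 and 4.78 to between 36.5 and 246 (median 150.1), by 5.02 ± 0.66 (adjusted p = 0.000382). Col15a1 had a log2 fold change of 5.58 without the second HSC library. Col8a2 had a log2 fold change of 4.09 without the second HSC library.

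Matrix glycoproteins moved in both directions, with microfibril genes among the largest rises. Among 38 genes for matrix glycoproteins and proteoglycans, 20 were called higher and 2 lower (median 1.36). Mfap5, a microfibril component (NM_015776, chr6:122513676-122529287), had values of 23.4, 7.28 and 20.3 in HSCs and 3335, 2536 and 3039.6 in CCl4-fib against 2054, 2251 and 3416 in NASH-fib. The 6 fibroblast libraries lay far above the 3 HSC libraries, with a log2 fold change of 7.39 ± 0.38 and an adjusted p of 2.81e-06, and the models differed by -0.23 (95% interval -1.20 to 0.73). Fbln1, which binds elastin and fibronectin, went from 14, 11.7 and 16.7 to between 386 and 1091 (median 727), by 5.57 ± 0.37 (adjusted p = 7.59e-06). Mfap4 of elastic fibres went from 1.17, 8.74 and 2.39 to 3838, 3968 and 4041 in CCl4-fib against 205, 4076 and 2129 in NASH-fib, by 9.04 ± 0.82 (adjusted p = 3.78e-05), and its first NASH-fib library was far below the other 5. Lamb1 and Postn fell. Lamb1, a laminin chain of basement membranes, had 1547, 1771 and 1791 across HSCs, 905, 1018 and 882 across CCl4-fib and 425, 372 and 341 across NASH-fib. Lamb1 fell by 1.51 ± 0.24 (adjusted p = 0.00127). Postn, periostin, which is often used as a marker of activated fibroblasts, was lower rather than higher, with 5022, 5577 and 2971 in HSCs and between 908 and 2353 (median 1737) in fibroblasts. Postn fell by 1.47 ± 0.37 (adjusted p = 0.0152). The abundant proteoglycans Lum and Dcn, chosen after their values were seen, were not called, with log2 fold changes of -0.27 ± 0.30 (adjusted p = 0.577) and -0.72 ± 0.29 (adjusted p = 0.107). Mfap4 had a log2 fold change of 9.66 without the second HSC library and 9.68 without the first NASH-fib library. Postn had a log2 fold change of -1.37 without the first HSC library and -1.30 without the second HSC library, where it was not called.

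Enzymes that process collagen were mixed, with 8 of 21 called higher and 1 lower (median 0.87), with 4 higher without the second HSC library or with the label prefix as a block and 3 with 1 fibroblast mean. Lox, which cross-links collagen and elastin, had 0, 42.2 and 4.78 in HSCs and between 277 and 1089 (median 602) in fibroblasts, a log2 fold change of 6.54 ± 0.91 (adjusted p = 0.000524). Loxl1, a relative needed for elastic fibres, had 49.1, 74.3 and 40.6 across HSCs, 981, 1482 and 1025 across CCl4-fib and 164, 197 and 117 across NASH-fib, so that it rose by 2.97 ± 0.33 (adjusted p = 0.000121) while NASH-fib stayed below CCl4-fib by a log2 difference of -2.87 (95% interval -3.70 to -2.03). The lysyl hydroxylase Plod2 rose from 157, 283 and 148 to between 436 and 1023 (median 573), by 1.74 ± 0.39 (adjusted p = 0.0087), a call that the label prefix as a block did not keep. Loxl4, another member of the Lox family, went from 173, 53.9 and 95.6 to between 5.95 and 30.5 (median 18.4). Loxl4 fell by 2.44 ± 0.57 (adjusted p = 0.0106). Lox had a log2 fold change of 5.21 without the first HSC library and 7.93 without the second HSC library. Loxl4 had a log2 fold change of -2.02 without the first HSC library, where it was not called.

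Of 25 proteases and their inhibitors, 15 were called higher in the pooled fibroblasts and 1 lower (median 2.36). Mmp3, stromelysin 1, which cleaves proteoglycans and activates other proteases (NM_010809, chr9:7445822-7455974), had values of 0, 10.2 and 0 across HSCs, 1218, 603 and 395 across CCl4-fib and 5917, 3147 and 3834 across NASH-fib. The lowest fibroblast library was far above the highest HSC library, with a log2 fold change of 9.53 ± 0.73 and an adjusted p of 1.45e-05. Mmp10, stromelysin 2, which lies beside Mmp3 (chr9:7502342-7510242), had 0 reads in the 3 HSC libraries and values of 70.6, 85.9 and 188 in CCl4-fib against 220.2, 82.8 and 135 in NASH-fib, at least 34.1-fold higher against 3 reads per library (adjusted p = 1.03e-05). Timp1, an inhibitor of these enzymes, had 71.3, 5.82 and 63.4 across HSCs, 1770.0, 1872 and 2911 across CCl4-fib and 742, 2563 and 2295 across NASH-fib. Timp1 rose by 5.88 ± 0.72 (adjusted p = 0.000227). The member that fell was Adamts1, a protease that cleaves versican, with 2392, 3052 and 1530.3 in HSCs and between 539 and 1735 (median 802) in fibroblasts. Adamts1 fell by 1.32 ± 0.33 (adjusted p = 0.0142). Mmp3 had a log2 fold change of 10.70 without the second HSC library. Timp1 had a log2 fold change of 6.48 without the first HSC library and 4.77 without the second HSC library. Adamts1 had a log2 fold change of -1.27 without the first HSC library and -1.10 without the second HSC library, where it was not called.

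AP-1, the dimer of Fos and Jun proteins, is a known regulator of stromelysin genes. The 250 bases before the RefSeq start site (GRCm38.p6) were searched on both strands for the AP-1 motif TGANTCA, which reads the same on either strand. Windows were at hand for 8 of the 15 proteases and inhibitors that rose, and the motif was found in 4 of them, Mmp10, Mmp3, Plaur (the urokinase receptor) and Mmp12 (macrophage elastase). Over the 10753 windows of tested genes 4.63% hold it, and since under 80% of the genes have a window, both shares are descriptions from which no enrichment can be read. None of the 17 immediate early and stress genes that rose and have a window held it, nor did any of the 23 stellate cell identity genes that fell, and 1 of 11 contractile genes that rose did. The windows of Mmp10 (chr9:7502092-7502341, + strand), Mmp3 (chr9:7445572-7445821, + strand) and Plaur (chr7:24462233-24462482, + strand) are shown because they hold the same motif near the start site of genes that rose in all 6 libraries, with the motif in capitals. Its first base is 63 bases before the start site in Mmp10, 46 in Mmp3 and 69 in Plaur. The proteases were chosen for this display after their values were seen.
Mmp10: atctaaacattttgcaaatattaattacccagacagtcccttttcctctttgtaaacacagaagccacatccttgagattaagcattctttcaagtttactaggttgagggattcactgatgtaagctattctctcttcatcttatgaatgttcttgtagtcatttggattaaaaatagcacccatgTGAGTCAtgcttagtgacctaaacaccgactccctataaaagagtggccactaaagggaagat
Mmp3: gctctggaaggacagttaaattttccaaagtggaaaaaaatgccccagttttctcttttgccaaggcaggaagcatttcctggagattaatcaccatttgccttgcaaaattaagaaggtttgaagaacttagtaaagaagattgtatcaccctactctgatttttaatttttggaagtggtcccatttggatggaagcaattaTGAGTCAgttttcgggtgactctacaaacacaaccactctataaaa
Plaur: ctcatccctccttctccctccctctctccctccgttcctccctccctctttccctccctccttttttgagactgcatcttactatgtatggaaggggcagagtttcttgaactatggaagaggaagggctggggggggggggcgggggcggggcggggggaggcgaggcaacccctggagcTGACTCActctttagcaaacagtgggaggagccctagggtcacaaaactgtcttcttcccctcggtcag
A match describes the letters in the window and is not evidence of binding.

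Most genes of the contractile apparatus rose, with 17 of 26 genes called higher and 1 lower (median 3.93). Acta2, smooth muscle actin and the usual marker of activated HSCs (NM_007392, chr19:34240336-34255373), had values of 93.5, 40.8 and 74.1 across HSCs, 6692, 5464 and 6985 across CCl4-fib and 5300.2, 8983 and 8846 across NASH-fib. All 6 fibroblast libraries were far above the 3 HSC libraries, with a log2 fold change of 6.69 ± 0.33 and an adjusted p of 2.52e-06, and the models differed by 0.24 (95% interval -0.60 to 1.08). The calcium store protein Casq2 had 0 reads in HSCs and 772, 155 and 106 in CCl4-fib against 1966, 1360.0 and 699 in NASH-fib, at least 221-fold higher (adjusted p = 7.85e-06). Aoc3, an amine oxidase of smooth muscle and adipocyte surfaces, also had 0 reads in HSCs and had 514, 199.9 and 180.3 in CCl4-fib against 748, 845 and 289.9 in NASH-fib, at least 121-fold higher (adjusted p = 3.67e-06). Lmod1, which nucleates actin in smooth muscle, had 1 read over the 3 HSC libraries and between 202 and 2069.8 (median 599) in fibroblasts, a ratio of 1963 (95% counting interval 352 to 77541).

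Smooth muscle and pericyte markers moved in both directions, with 10 of 14 called higher and 2 lower (median 6.43, or 5.61 with genes near 0 in HSCs set to the lowest fold that 3 reads allow). Their summed value did not rise throughout, with 25792 to 42123 in HSCs, 31021, 6143 and 7871 across CCl4-fib and 30964 to 47702 in NASH-fib. Actg2, the visceral smooth muscle actin, had 4.68, 1.46 and 1.2 in HSCs and between 277 and 2855 (median 864) in fibroblasts. Actg2 rose by 8.11 ± 0.67 (adjusted p = 2.24e-05). The pair that fell encodes both parts of a mural cell potassium channel and also stands in the stellate cell identity list. Abcc9, its sulfonylurea receptor (NM_021041, chr6:142587862-142702274), had 12493, 13106 and 9896 across HSCs, 426, 214 and 225 across CCl4-fib and 1208, 1424 and 1020.2 across NASH-fib. Abcc9 fell by 4.35 ± 0.30 (adjusted p = 9.43e-06). Kcnj8, the pore, had 1112, 1188 and 928 across HSCs, 298, 152 and 151 across CCl4-fib and 72, 70.4 and 61.9 across NASH-fib. Kcnj8 fell by 3.22 ± 0.31 (adjusted p = 5.88e-05). The models differed in opposite directions for these genes, by 2.13 (95% interval 1.36 to 2.91) for Abcc9 and -1.47 (95% interval -2.27 to -0.67) for Kcnj8, NASH-fib minus CCl4-fib.

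Serum response factor controls many contractile genes through the CArG box, whose letters run CC, then 6 A or T, then GG. On both strands of the same windows it was found in 2 of the 11 contractile genes that rose and have a window, Ldb3 (a Z-disc protein) and Myl9 (the myosin regulatory light chain). It was also found in 2 of the 17 immediate early and stress genes, in 0 of the 8 proteases and inhibitors and in 0 of the 23 identity genes, and 1.16% of the 10753 windows hold it. Ldb3 (chr14:34588682-34588931, - strand) has it with its first base 35 bases before the start site and Myl9 (chr2:156775214-156775463, + strand) 161 bases before. Both windows are shown with the box in capitals, since Ldb3 and Myl9 rose by 6.55 ± 0.50 (adjusted p = 1.39e-05) and 3.69 ± 0.86 (adjusted p = 0.0107).
Ldb3: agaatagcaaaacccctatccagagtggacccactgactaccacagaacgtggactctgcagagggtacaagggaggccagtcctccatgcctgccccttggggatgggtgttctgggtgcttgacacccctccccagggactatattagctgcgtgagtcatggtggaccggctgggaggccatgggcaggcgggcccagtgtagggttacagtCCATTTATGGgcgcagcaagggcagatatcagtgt
Myl9: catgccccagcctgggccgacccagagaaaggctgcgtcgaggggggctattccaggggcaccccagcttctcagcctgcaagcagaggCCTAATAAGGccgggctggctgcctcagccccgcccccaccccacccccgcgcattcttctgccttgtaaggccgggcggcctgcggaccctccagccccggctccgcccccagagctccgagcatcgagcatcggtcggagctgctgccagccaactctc
Neither match was tested for binding. Another 3 motifs were searched in the same 4 gene sets on both strands. The TEAD motif GGAATG stood in 3 of the 11 contractile, 1 of the 17 immediate early, 2 of the 23 identity and 1 of the 8 protease windows, and in 10.8% of all windows. The LHX motif TAATTA stood in 1, 0, 2 and 1 of them, and in 2.58% of all. The GATA motif AGATAA stood in 1, 1, 6 and 0, and in 6.02% of all.

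Several surface and matrix genes were picked because the 95% interval of their difference between the models lay within 1 log2 unit, so that their likeness is a description. Dpt, dermatopontin, a small matrix protein of fibroblasts (NM_019759, chr1:164796732-164824266), had 47.9, 48 and 50.2 across HSCs, 4938, 4409 and 4646 across CCl4-fib and 4011, 5262 and 6941 across NASH-fib. The HSC libraries were nearly equal, the mean of the fibroblasts was 103 times as high, and the log2 fold change was 6.64 ± 0.26 (adjusted p = 1.15e-06), with a difference between the models of 0.18 (95% interval -0.49 to 0.85). Pdpn, podoplanin, a glycoprotein of lymphatic endothelium, mesothelium and activated fibroblasts (NM_010329, chr4:143267409-143299564), had 329.6, 328 and 203 across HSCs, 3022, 2927 and 3083 across CCl4-fib and 3363, 2669 and 2759.7 across NASH-fib. Pdpn rose by 3.40 ± 0.27 (adjusted p = 1.65e-05) with a difference of -0.05 (95% interval -0.73 to 0.64). Figf, the lymphatic growth factor VEGF-D (NM_010216, chrX:164373522-164402650), had 9.35, 18.9 and 20.3 across HSCs, 485, 442 and 385 across CCl4-fib and 469, 364 and 508 across NASH-fib. Figf rose by 4.75 ± 0.34 (adjusted p = 1.01e-05) with a difference of 0.02 (95% interval -0.83 to 0.88). The reads of Dpt reached 4.33 per exonic base, so that the limit on reads per position can draw its values together. Map1b, a microtubule-associated protein best known from neurons, rose from 45.6, 67 and 46.6 to between 473 and 1162 (median 640.2), by 3.69 ± 0.34 (adjusted p = 4.43e-05), with a difference of 0.01 (95% interval -0.86 to 0.88).

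**Figure D4:**
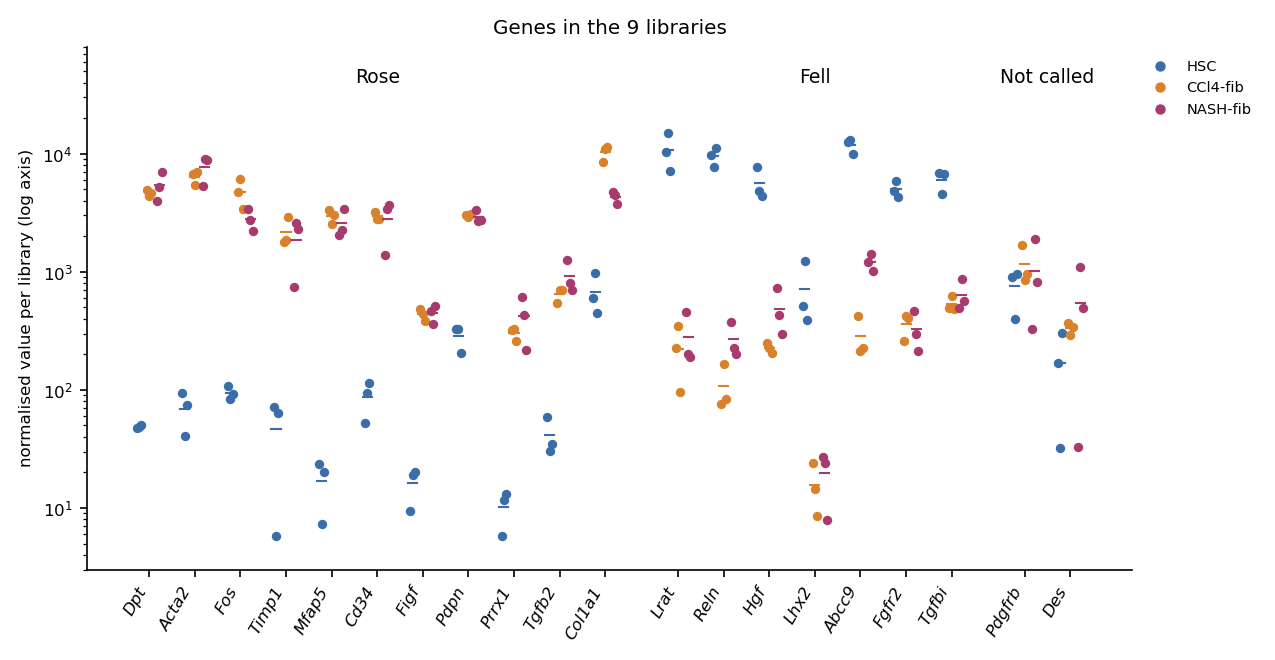
Normalised value (log axis) of 20 genes in each library, with 1 point per library, a bar at each group mean, HSC in blue, CCl4-fib in orange and NASH-fib in purple. Dpt is 47.9 to 50.2 in HSCs and 4011 to 6941 in fibroblasts, Lrat is 7070.5 to 14894 in HSCs and 95.4 to 458 in fibroblasts, and Pdgfrb and Des overlap between the groups.

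The genes that stood furthest from HSCs across the whole table were mostly undetected there. Cilp, cartilage intermediate layer protein, a matrix protein that binds TGF-beta (NM_173385, chr9:65265180-65280605), had 0 reads in all HSC libraries and 1449, 917 and 488 in CCl4-fib against 257, 623 and 413 in NASH-fib, at least 181-fold higher (adjusted p = 2.52e-06). Scara3, a scavenger receptor, had 0 reads in HSCs and between 149.6 and 287 (median 251) in fibroblasts, at least 59.3-fold higher (adjusted p = 2.52e-06). Vit, vitrin, had 0 reads and between 125 and 376 (median 251), at least 65.1-fold higher (adjusted p = 5.38e-06), and the unnamed gene 3632451O06Rik had 0 reads and between 118 and 714 (median 196), at least 85.4-fold higher (adjusted p = 7.85e-06). Aspn, asporin, a small proteoglycan that binds collagen and TGF-beta, was detected weakly in HSCs at 2.34, 0 and 10.8 and reached 2405, 1124 and 1165 in CCl4-fib against 7994, 3675 and 3002 in NASH-fib, a log2 fold change of 9.55 ± 0.67 (adjusted p = 9.81e-06). Nrip2 had 2 reads over the HSC libraries and between 207 and 1275 (median 343) in fibroblasts, a ratio of 721 (95% counting interval 199 to 5956), with 29.1% of its exonic bases shared with another gene of the same strand, whose reads cannot be told apart. Aspn had a log2 fold change of 8.67 without the second HSC library and 10.45 without the third HSC library.

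TGF-beta is the main fibrogenic cytokine of the liver, and 7 of 33 genes of TGF-beta and BMP signalling were called in each direction (median 0.08), or 4 in each with the label prefix as a block. Among those that rose were Tgfb2, Tgfb3, Ltbp1, Acvrl1, Bmp4 and Fst, and those that fell were Bmp2, Bmp5, Bmp6, Bambi, Smad7, Eng and Tgfbi, so that ligands and inhibitors stood on both sides. Tgfb2 had 58.5, 30.6 and 34.7 across HSCs, 545, 696 and 702 across CCl4-fib and 1266, 799.8 and 701 across NASH-fib. Tgfb2 rose by 4.22 ± 0.33 (adjusted p = 1.48e-05). Tgfb3 rose from 44.4, 5.82 and 45.4 to between 250.1 and 1594 (median 1347), by 5.42 ± 0.68 (adjusted p = 0.000258). Bmp5, a BMP ligand, had 4359, 3406 and 4706 across HSCs, 131, 146 and 82 across CCl4-fib and 420.0, 390.1 and 284 across NASH-fib. Bmp5 fell by 4.32 ± 0.30 (adjusted p = 8.39e-06), although an antisense gene overlaps 49.1% of its exonic bases and strand was not used in the counting. Tgfbi, an adhesion protein induced by TGF-beta in many cells (NM_009369, chr13:56609603-56639339), had 6874, 4514 and 6702 across HSCs, 491, 628 and 485 across CCl4-fib and 492, 867 and 566 across NASH-fib. Tgfbi fell by 3.36 ± 0.29 (adjusted p = 3.09e-05) with a model difference of 0.23 (95% interval -0.51 to 0.98). The co-receptor endoglin, Eng, which endothelial cells also express, went from 430.2, 585 and 465 to between 43.9 and 109.7 (median 80.2). Eng fell by 2.67 ± 0.36 (adjusted p = 0.000449). Tgfb3 had a log2 fold change of 4.51 without the second HSC library.

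Growth factors and their receptors changed in both directions, with 17 of 36 called higher, or 11 with the label prefix as a block, and 6 lower (median 0.87). Ptn, pleiotrophin, a heparin-binding growth factor, had 0 reads in HSCs and 351, 342 and 569 in CCl4-fib against 23.1, 411 and 228 in NASH-fib, at least 83.9-fold higher (adjusted p = 5.8e-05), with the first NASH-fib library far below the others. Wnt5a, a non-canonical Wnt ligand, rose from 88.8, 37.9 and 61 to between 447 and 1111 (median 561), by 3.46 ± 0.35 (adjusted p = 6.87e-05). Hgf, the hepatocyte growth factor that quiescent HSCs supply to hepatocytes (NM_001289458, chr5:16553495-16619439), had 7688, 4867 and 4418 across HSCs, 248, 228 and 207 across CCl4-fib and 734, 429 and 299.8 across NASH-fib. Hgf fell by 4.09 ± 0.34 (adjusted p = 2.17e-05). Fgfr2, an FGF receptor, had 4819, 5889 and 4298 across HSCs, 261, 422 and 404 across CCl4-fib and 464, 300.1 and 214 across NASH-fib. Fgfr2 fell by 3.90 ± 0.32 (adjusted p = 2.17e-05) with a model difference of -0.19 (95% interval -1.01 to 0.62). The angiotensin receptor Agtr1a went from 2042, 2420.2 and 2941 to between 263 and 525 (median 309.5). Agtr1a fell by 2.87 ± 0.28 (adjusted p = 6.45e-05).

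Chemokines and cytokines rose in 10 of 24 cases and fell in 3 (median 1.41), with 5 higher when all fibroblasts shared 1 mean. Spp1, osteopontin, had 32.7, 156 and 159 across HSCs, 938, 1527 and 2421 across CCl4-fib and 10729.5, 4847 and 5255 across NASH-fib. Spp1 rose by 5.05 ± 0.54 (adjusted p = 0.0001), where the limit on reads per position can flatten the highest values. Il6 rose from 1.17, 13.1 and 14.3 to between 75.7 and 366 (median 109.6), by 4.06 ± 0.67 (adjusted p = 0.0016). Ccl7, which attracts monocytes, had 201, 121 and 123 across HSCs, 1872, 1742 and 3297 across CCl4-fib and 369.8, 468 and 418 across NASH-fib. Ccl7 rose by 2.73 ± 0.32 (adjusted p = 0.000161) with a model difference of -2.40 (95% interval -3.21 to -1.60). Cxcl12, the homeostatic chemokine of stromal cells, went the other way, from 5336, 6040.2 and 5051 to between 713 and 1791 (median 1219). Cxcl12 fell by 2.19 ± 0.30 (adjusted p = 0.000459). Cxcl14 went from 247, 226 and 240.3 to between 27.2 and 82 (median 66.3). Cxcl14 fell by 2.13 ± 0.40 (adjusted p = 0.00319). Cxcl16, a membrane-bound chemokine, had 736, 680.0 and 527 across HSCs and between 200.4 and 492 (median 280.2) in fibroblasts. Cxcl16 fell by 1.13 ± 0.27 (adjusted p = 0.0128), with part of its exonic bases shared with Zmynd15 on the other strand. Spp1 had a log2 fold change of 4.31 without the first HSC library. Il6 had a log2 fold change of 3.14 without the first HSC library. Cxcl16 had a log2 fold change of -1.03 without the first HSC library, where it was not called.

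Adhesion receptors moved in both directions, with 10 of 28 called higher and 5 lower (median 0.63). Cdh11, the cadherin of mesenchymal cells, had 16.4, 10.2 and 17.9 across HSCs, 1279, 1781 and 2421 across CCl4-fib and 661, 256 and 345 across NASH-fib. Cdh11 rose by 5.75 ± 0.38 (adjusted p = 7.85e-06) with a model difference of -2.19 (95% interval -3.17 to -1.21). Itga11, a collagen receptor chain of fibroblasts, had 1 read over the HSC libraries and between 21.8 and 102 (median 58.9) in fibroblasts, a ratio of 156 (95% counting interval 27.8 to 6175). Thy1, a glycoprotein of portal fibroblasts, rose from 9.35, 0 and 7.17 to between 84.3 and 415 (median 101), by 5.0 ± 0.75 (adjusted p = 0.00087). Sdc3, a syndecan, went from 935, 1440.2 and 1113 in HSCs to 112, 136 and 134 in CCl4-fib against 107, 135 and 172 in NASH-fib. Sdc3 fell by 3.12 ± 0.29 (adjusted p = 4.76e-05), and the models differed by 0.10 (95% interval -0.64 to 0.84). Itgb3, the integrin beta 3 chain, went from 1431, 499 and 531 to between 67.5 and 156 (median 129). Itgb3 fell by 2.70 ± 0.45 (adjusted p = 0.00172). Among the other genes that fell to a like level in both models, Gpc4, a glypican, went from 1521, 1300.4 and 1066 to between 144 and 239.8 (median 175). Gpc4 fell by 2.84 ± 0.29 (adjusted p = 7.93e-05). Ccbe1, a factor for lymphatic growth, went from 1769, 1922 and 1013 to between 169 and 237 (median 222). Ccbe1 fell by 2.86 ± 0.30 (adjusted p = 8.4e-05). Thy1 had a log2 fold change of 5.61 without the first HSC library and 3.93 without the second HSC library.

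Transcription factors of the mesenchyme changed in both directions, with 10 of 26 called higher and 5 lower (median 0.96), or 3 lower without the first or the second HSC library or with the label prefix as a block. Ebf1, an early B-cell factor that is also used by adipogenic and perivascular cells (NM_001290711, chr11:44618100-45008096), had 0 reads in HSCs and 367, 113 and 81.1 in CCl4-fib against 995, 704 and 619 in NASH-fib, at least 126-fold higher (adjusted p = 4.59e-06). Its relative Ebf2 also had 0 reads in HSCs and had 155, 89.3 and 44.8 in CCl4-fib against 295, 256 and 341 in NASH-fib, at least 51.5-fold higher (adjusted p = 6.23e-06). All 3 NASH-fib libraries were above all 3 CCl4-fib libraries for both, and the models differed by 2.33 (95% interval 1.07 to 3.59) for Ebf1, which passed the test (adjusted p = 0.0301), and by 1.78 (95% interval 0.60 to 2.95) for Ebf2, which did not (adjusted p = 0.057). Prrx1, a homeobox factor of fibroblasts, rose from 5.84, 11.7 and 13.2 to between 219 and 617 (median 326), by 5.0 ± 0.41 (adjusted p = 2.17e-05). Among the genes that fell, Tbx20 went from 1231, 1442 and 817 to between 138 and 523 (median 271). Tbx20 fell by 2.02 ± 0.36 (adjusted p = 0.0025). Foxf1, a factor of visceral mesenchyme, went from 1143, 2142 and 687 to between 285 and 674 (median 398). Foxf1 fell by 1.55 ± 0.40 (adjusted p = 0.0184). Tcf4 went from 2436, 3642 and 2292 to between 550.5 and 1771 (median 873). Tcf4 fell by 1.55 ± 0.28 (adjusted p = 0.00276). Foxf1 had a log2 fold change of -1.58 without the first HSC library and -1.12 without the second HSC library, where it was not called.

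Immediate early and stress genes formed the list with the largest share of members called higher among those that do not mark a cell type, 20 of 25, with 0 lower (median 2.54). With the label prefix as a block, 14 of the 25 were called higher. Fos, a subunit of AP-1 (NM_010234, chr12:85473901-85477270), had 108, 84.5 and 92.1 across HSCs, 4763, 6128 and 3392 across CCl4-fib and 3399.8, 2729.8 and 2225 across NASH-fib. Its mean was 39.8 times as high in fibroblasts, a log2 fold change of 5.23 ± 0.29 (adjusted p = 3.46e-06), with no overlap between groups. Nr4a1, an orphan nuclear receptor, rose from 15.2, 11.7 and 15.5 to between 305 and 791 (median 543), by 5.14 ± 0.35 (adjusted p = 7.85e-06). Egr1, a zinc finger factor, went from 140.3, 183 and 116 to between 1322 and 2112 (median 1742), by 3.53 ± 0.28 (adjusted p = 1.89e-05) with a model difference of -0.08 (95% interval -0.80 to 0.64). Only the fibroblasts were stained and sorted, so that step and the injury cannot be told apart for these genes.

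Most genes that define a quiescent HSC fell. Of 39 stellate cell identity genes tested, 29 were called lower and 2 higher (median -3.29), and 27 had all 6 fibroblast libraries below all 3 HSC libraries. The summed value of the list was 147850.2, 145936 and 130429 in the HSC libraries and 11997 to 19969 in the fibroblast libraries. Of its 39 tested members, 18 also stand in other lists, among them Ptprb, which is in the sinusoidal endothelial list. Lrat, which esterifies retinol for storage (NM_023624, chr3:82892582-82903974), had values of 10235, 14894 and 7070.5 across HSCs, 225, 348 and 95.4 across CCl4-fib and 458, 200.4 and 189 across NASH-fib. The lowest HSC library was 7070.5 and the highest fibroblast library 458, and the gene fell by 5.50 ± 0.46 (adjusted p = 2.47e-05), with a model difference of 0.40 (95% interval -0.78 to 1.58). Reln, reelin, a secreted glycoprotein that HSCs make in the liver (NM_011261, chr5:21884454-22344705), had 9782, 7669.6 and 11068 across HSCs, 75.4, 166 and 83 across CCl4-fib and 377, 225 and 200.5 across NASH-fib. Reln fell by 5.85 ± 0.35 (adjusted p = 4.59e-06). Lhx2, a homeobox factor that holds HSCs quiescent (NM_010710, chr2:38351308-38369737), had 516, 1239 and 393 across HSCs, 23.8, 14.5 and 8.59 across CCl4-fib and 27.2, 24.1 and 7.86 across NASH-fib. Lhx2 fell by 5.23 ± 0.55 (adjusted p = 8.55e-05). Hhip, which binds and restrains hedgehog ligands (NM_020259, chr8:79965851-80058008), had 1851, 2276 and 1840.0 across HSCs, 0, 0.85 and 0 across CCl4-fib and 8.16, 38.3 and 0 across NASH-fib. Hhip fell by 9.39 ± 0.92 (adjusted p = 6.08e-05). Hhip had a log2 fold change of -10 without the second NASH-fib library and -8.68 without the third NASH-fib library.

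Between the models, 6 identity genes were higher in NASH-fib than in CCl4-fib, among them Colec10, Abcc9, Bmp5, Ptprb and Tmem56, and 3 were lower (Tcf21, Steap4 and Kcnj8). Ptprb is counted among the sinusoidal endothelial markers too. Vipr1, a receptor for vasoactive intestinal peptide, had 3887, 1523 and 3222 across HSCs, 25.4, 25.5 and 0.95 across CCl4-fib and 61.2, 57.9 and 62.9 across NASH-fib. Vipr1 fell by 6.68 ± 0.76 (adjusted p = 0.000144), although the difference between the models, 2.47 (95% interval 0.54 to 4.41), did not pass the test (adjusted p = 0.096). Fcna, ficolin A, a soluble pattern receptor, had 5249.9, 2111 and 9072 in HSCs and between 14.9 and 91.4 (median 44.1) in fibroblasts. Fcna fell by 6.80 ± 0.60 (adjusted p = 3.48e-05). Its reads reached 5.81 per exonic base, where the limit on reads per position can flatten a value. The HSC libraries ranked in the same order for Fcna as for Clec4f, a lectin of Kupffer cells, and macrophage RNA was not tested as its source. Colec10, a collectin chosen after its values were seen, did pass the test between the models. It had 12536, 21263 and 7361 across HSCs, 7.94, 46.8 and 11.4 across CCl4-fib and 767, 57.9 and 197 across NASH-fib, a difference of 3.57 (95% interval 1.60 to 5.54) (adjusted p = 0.0317). Sinusoidal endothelial and hepatocyte markers were also higher in NASH-fib, as given above, and their part in these differences was not tested. Vipr1 had a log2 fold change of -6.05 without the third CCl4-fib library.

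**Figure D5:**
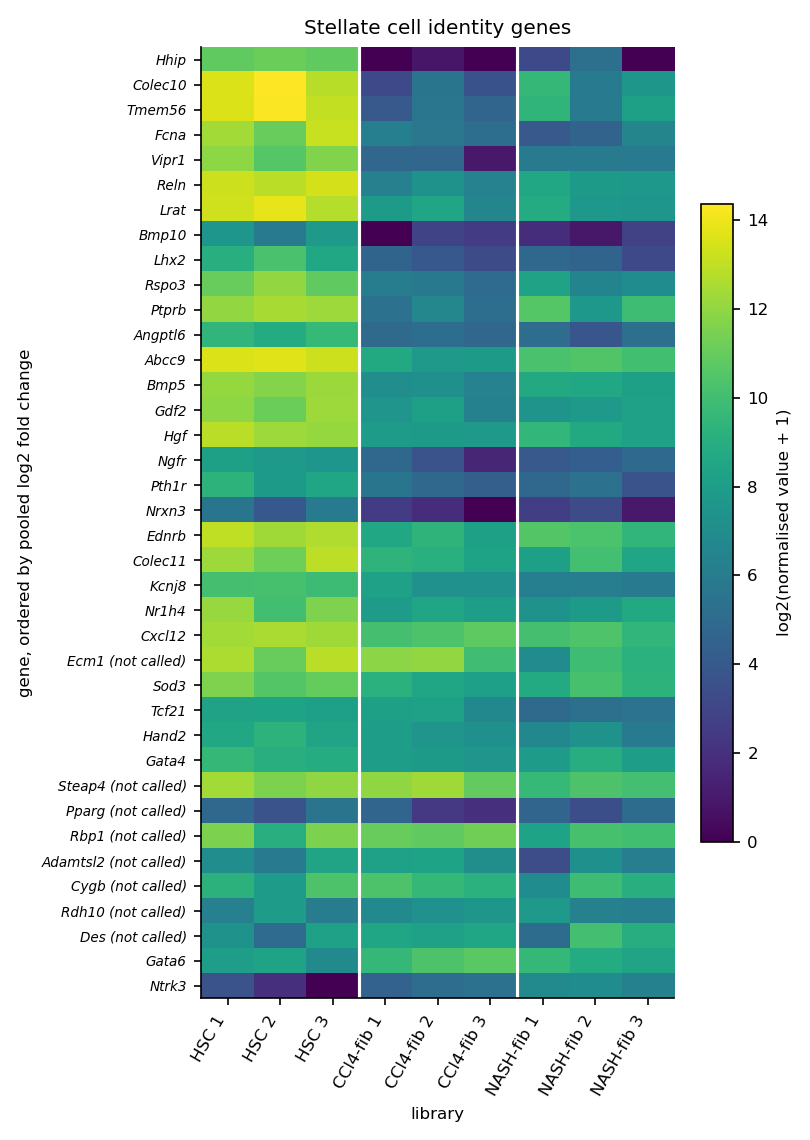
Heatmap of log2(normalised value + 1) of 38 of the 39 tested stellate cell identity genes (rows, ordered by pooled log2 fold change) in the 9 libraries (columns). The upper rows are bright in the 3 HSC libraries and dark in all 6 fibroblast libraries, 8 rows are marked as not called, and Gata6 and Ntrk3 at the bottom are brighter in fibroblasts.

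Not every stellate gene was lost. The identity genes that rose were Ntrk3 and Gata6. Ntrk3, a neurotrophin receptor, rose from 11.7, 2.91 and 0 to between 22.2 and 126 (median 59.3), by 3.99 ± 0.70 (adjusted p = 0.00229). Gata6, a transcription factor of mesoderm, rose from 265, 317 and 118 to between 331 and 1669.6 (median 759.6), by 1.81 ± 0.42 (adjusted p = 0.0104), a call that the label prefix as a block did not keep. Des, desmin, an intermediate filament used to stain HSCs in rodents, had 168, 32 and 302 across HSCs, 365, 294 and 343 across CCl4-fib and 32.6, 1102 and 495 across NASH-fib, and its log2 fold change of 1.32 ± 0.99 did not pass the test (adjusted p = 0.403). Pdgfrb, the receptor of the main mitogen of HSCs, had 898, 396 and 962 across HSCs, 1700.1, 854 and 959.8 across CCl4-fib and 330.3, 1909.5 and 814 across NASH-fib, with a log2 fold change of 0.43 ± 0.53 (adjusted p = 0.614). Its 95% interval ran from -0.73 to 1.60, and in both genes the second HSC and the first NASH-fib library were the lowest of their groups. Of the 12 quiescent HSC markers tested, 7 were called lower and 0 higher (median -2.70). The 13 activated fibroblast markers called higher, of 17 with 1 lower (median 2.67), were mostly genes of the other lists (14 of the 17). Col1a2, whose promoter drove the sort, is among the 17. Ntrk3 had a log2 fold change of 4.88 without the first HSC library and 3.05 without the third HSC library. Des had a log2 fold change of 0.39 without the second HSC library, 1.99 without the third HSC library and 2.06 without the first NASH-fib library, and it was called without the first NASH-fib library.

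The retinoid and lipid storage list moved in both directions, with 6 of 27 called lower and 4 higher (median -0.68), or 2 higher without the first HSC library or with 1 fibroblast mean, 1 higher with the label prefix as a block and 10 lower by DESeq2. Beside Lrat, Cyp26b1, which degrades retinoic acid, went from 448, 671 and 337 to between 21.4 and 62.5 (median 29.5). Cyp26b1 fell by 3.78 ± 0.39 (adjusted p = 7.97e-05). Pnpla3, a lipase that acts on retinyl esters, was low throughout, with 24.6, 13.1 and 15.5 in HSCs and 3 reads over the 6 fibroblast libraries, a ratio of HSCs over fibroblasts of 38.3 (95% counting interval 12.3 to 193). Aldh1a2, which makes retinoic acid and is abundant in mesothelium, went up, with 11.7, 1.46 and 9.56 across HSCs, 379, 426 and 605 across CCl4-fib and 106, 151 and 150.4 across NASH-fib, by 5.18 ± 0.52 (adjusted p = 6.87e-05). Lpl, lipoprotein lipase, rose from 1257, 1728 and 1019 to between 1852 and 4156 (median 2516), by 1.04 ± 0.29 (adjusted p = 0.0264), a call that 10 of the 21 alternative settings did not keep. Plin4, a lipid droplet coat protein, rose from 2.34, 0 and 5.98 to between 9.36 and 93.5 (median 26.8), by 3.21 ± 0.82 (adjusted p = 0.0169). Aldh1a2 had a log2 fold change of 4.43 without the second HSC library. Plin4 had a log2 fold change of 3.32 without the first HSC library, 2.45 without the second HSC library and 3.86 without the third HSC library, and its call was lost without the first HSC library and without the second HSC library.

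Outside the lists, 4 genes were among those with the widest gap between the lowest HSC and the highest fibroblast library. The unnamed gene 1700063D05Rik had 193, 160.2 and 94.5 in HSCs and 0 reads in all 6 fibroblast libraries, at least 51.2-fold lower (adjusted p = 1.39e-05). Egfem1, an EGF-like and EMI domain gene, had 224, 333 and 175.8 in HSCs and 1 read over the fibroblast libraries, a ratio of 1519 (95% counting interval 271 to 60089). Disp2, a relative of the transporter that releases hedgehog ligands, had 1139.8, 549 and 781 across HSCs, 0, 2.55 and 0.95 across CCl4-fib and 4.08, 10.7 and 1.97 across NASH-fib. Disp2 fell by 7.91 ± 0.60 (adjusted p = 1.32e-05). Prkcq, protein kinase C theta, had 83, 109 and 75.3 in HSCs and at most 1.78 in fibroblasts (adjusted p = 3.53e-05).

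Few proliferation and secretion genes were called. Among 26 cell cycle genes 2 were called higher and 0 lower (median 0.34), and among 24 genes of the secretory pathway 2 were higher and 0 lower (median 0.48). In all 4 called genes CCl4-fib was higher than NASH-fib. With 1 library left out, 1 to 5 secretory genes were called higher, the lowest count among others without the second HSC library and the highest without the first NASH-fib library, and 0 to 3 cell cycle genes, with 0 without the first HSC library. With 1 fibroblast mean or with the label prefix as a block, 0 of either list were called higher. The apoptosis inhibitor Birc5 had 8.18, 7.28 and 10.8 across HSCs, 51.6, 109 and 84 across CCl4-fib and 8.16, 24.9 and 19.7 across NASH-fib. Birc5 rose by 1.93 ± 0.49 (adjusted p = 0.0168). Tyms, thymidylate synthase, had 18.7, 37.9 and 75.3 across HSCs, 294, 350.4 and 527 across CCl4-fib and 40.8, 104 and 69.8 across NASH-fib. Tyms rose by 2.05 ± 0.48 (adjusted p = 0.0116). The endoplasmic reticulum retrieval receptor Kdelr3 had 52.6, 71.3 and 20.3 across HSCs, 316, 337 and 329 across CCl4-fib and 107, 59.7 and 57 across NASH-fib. Kdelr3 rose by 1.82 ± 0.43 (adjusted p = 0.0118). The translocon gene Sec61a1 had 171, 93.2 and 513 across HSCs, 2149, 2372 and 1840.4 across CCl4-fib and 97.9, 622 and 506 across NASH-fib. Sec61a1 rose by 2.01 ± 0.64 (adjusted p = 0.0476), a call that 15 of the 21 alternative settings did not keep. Birc5 had a log2 fold change of 1.89 without the first HSC library and 1.82 without the second HSC library, where it was not called. Tyms had a log2 fold change of 1.56 without the first HSC library, where it was not called.

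Most markers of other mesenchymal and lining cells were higher in the pooled fibroblasts. Portal fibroblast markers were called higher in 12 of 14 cases and lower in 0 (median 4.96, or 4.90 with genes near 0 in HSCs set to their bound), and 6 of the 14 stand in other lists too. Cd34, a sialomucin of portal and adventitial fibroblasts, had 52.6, 93.2 and 115 across HSCs, 3219, 2811 and 2822 across CCl4-fib and 1384, 3416 and 3644 across NASH-fib. Cd34 rose by 5.04 ± 0.38 (adjusted p = 1.32e-05) with a model difference of -0.19 (95% interval -1.16 to 0.78). All 10 mesothelial markers tested were called higher (median 4.65). Gpm6a, a membrane glycoprotein that marks mesothelium, had 411, 447 and 299 across HSCs, 7605, 6733 and 6053 across CCl4-fib and 21261, 11014 and 13786 across NASH-fib. Gpm6a rose by 4.71 ± 0.30 (adjusted p = 6.23e-06). Upk1b, a uroplakin, had 195, 51 and 80.1 across HSCs, 4129, 3895 and 4366 across CCl4-fib and 3415, 4223 and 5496 across NASH-fib. Upk1b rose by 5.49 ± 0.39 (adjusted p = 1.03e-05) with a model difference of 0.06 (95% interval -0.95 to 1.06). Lrrn4 rose from 40.9, 7.28 and 27.5 to between 419 and 680.4 (median 511), by 4.59 ± 0.47 (adjusted p = 7.93e-05). Krt19, a keratin of both mesothelium and bile ducts, rose from 3.51, 4.37 and 17.9 to 2174, 2699 and 771 in CCl4-fib against 53, 469 and 348 in NASH-fib, by 6.25 ± 0.74 (adjusted p = 0.000198). Lrrn4 had a log2 fold change of 3.90 without the second HSC library. Krt19 had a log2 fold change of 6.89 without the third HSC library.

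Cholangiocyte markers were called higher in 7 of 10 cases (median 3.01, or 2.83 with bounds). Krt7 rose from 12.9, 2.91 and 13.2 to between 177 and 364 (median 314), by 4.97 ± 0.48 (adjusted p = 5.72e-05). Epcam, an epithelial adhesion molecule, chosen after its values were seen, had 0, 2.91 and 0 across HSCs, 7.94, 0.85 and 1.91 across CCl4-fib and 66.6, 37.4 and 20.6 across NASH-fib. Lymphocyte and neutrophil markers had 0 of 6 and 0 of 8 members called by limma, and at most 1 and 3 in other settings. For Ngp, a neutrophil granule gene chosen after its values were seen, the values were 23.4, 454 and 16.7 across HSCs, 0, 8.51 and 5.72 across CCl4-fib and 208, 2130.4 and 315 across NASH-fib. Krt7 had a log2 fold change of 4.36 without the second HSC library.

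Many genes of hepatocytes, endothelium and macrophages fell. Only the fibroblasts were sorted for GFP, so the falls of hepatocyte genes below are descriptions and no findings. Among hepatocyte markers 11 of 20 were called lower and 0 higher (median -2.38), but 2 with 1 mean for all fibroblasts and 4 with the label prefix as a block. Alb, albumin, had 9062, 14161 and 11657 across HSCs, 679, 617 and 829 across CCl4-fib and 14897, 1787 and 7894 across NASH-fib. Alb fell by 2.48 ± 0.55 (adjusted p = 0.00834). Serpina3k, a secreted liver serpin, went from 4641, 6079.5 and 8223 to 69.8, 55.3 and 223 in CCl4-fib against 4162, 221 and 2886 in NASH-fib. Serpina3k fell by 4.07 ± 0.82 (adjusted p = 0.00516). Cyp2e1, which activates CCl4, went from 3499, 3423 and 10367 to 377, 205 and 84.9 in CCl4-fib against 3779, 2043 and 3652 in NASH-fib. Cyp2e1 fell by 2.72 ± 0.51 (adjusted p = 0.00348). In each of these 3 genes the CCl4-fib libraries lay below all HSC libraries and at least 1 NASH-fib library lay above or near the lowest HSC library. Cyp1a2 went from 148, 211 and 996 to between 9.8 and 40.3 (median 15.1). Cyp1a2 fell by 4.17 ± 0.64 (adjusted p = 0.000974). Serpina3k had a log2 fold change of -3.41 without the second NASH-fib library. Cyp1a2 had a log2 fold change of -3.35 without the third HSC library.

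All 20 sinusoidal endothelial markers were called lower (median -3.89), and 14 of them were higher in NASH-fib than in CCl4-fib. As for the hepatocyte genes, only the fibroblasts were sorted for GFP, so the falls from HSCs are descriptions and no findings. Stab2, a scavenger receptor of these cells, had 805, 507 and 1368 across HSCs, 3.97, 21.3 and 21 across CCl4-fib and 125, 34.7 and 307 across NASH-fib. Stab2 fell by 4.41 ± 0.71 (adjusted p = 0.00132). Cdh5, the endothelial cadherin, had 548, 948 and 579.8 across HSCs, 3.97, 2.55 and 3.82 across CCl4-fib and 192, 40.1 and 131 across NASH-fib. Cdh5 fell by 4.99 ± 0.50 (adjusted p = 6.75e-05) with a model difference of 4.53 (95% interval 3.25 to 5.80). Flt1, a VEGF receptor, went from 569, 703 and 385 to between 41.9 and 96.3 (median 65.4). Flt1 fell by 3.05 ± 0.38 (adjusted p = 0.000262). Stab1 went from 434, 526 and 954 to between 17.5 and 112 (median 46.7). Stab1 fell by 3.65 ± 0.42 (adjusted p = 0.000168). Egfl7 went from 429, 279.6 and 762 to between 9.54 and 62.5 (median 14.3). Egfl7 fell by 4.37 ± 0.54 (adjusted p = 0.000254).

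Of 19 macrophage and Kupffer cell markers, 12 were called lower and 1 higher (median -2.35). Macrophages carry CD45, and only the fibroblasts were sorted against it, so the falls below are descriptions and no findings. Clec4f, a lectin of Kupffer cells, had 1353, 593 and 4479.7 across HSCs, 7.94, 26.4 and 0 across CCl4-fib and 36.7, 45.4 and 339 across NASH-fib. Clec4f fell by 6.06 ± 1.07 (adjusted p = 0.00226). Vsig4 went from 715, 2062 and 2055 to 0, 12.8 and 8.59 in CCl4-fib against 366, 46.3 and 219 in NASH-fib. Vsig4 fell by 5.68 ± 0.88 (adjusted p = 0.00103). Timd4 went from 196, 472 and 383 to between 0 and 53.1 (median 5.58). Timd4 fell by 5.88 ± 1.15 (adjusted p = 0.00421). Marco went from 59.6, 105 and 229.5 to between 0 and 30.5 (median 0.395). Marco fell by 5.54 ± 1.09 (adjusted p = 0.00425). Ptprc, the CD45 gene that the sort selected against, had 88.8, 315 and 258 across HSCs, 8.73, 25.5 and 24.8 across CCl4-fib and 319, 62.3 and 312 across NASH-fib, so that it was low in CCl4-fib and within the HSC range or above it in 2 of the 3 NASH-fib libraries. The 1 member called higher, Cd14, the endotoxin co-receptor, had 31.6, 32 and 100.4 across HSCs, 957, 1034 and 626 across CCl4-fib and 27.2, 158 and 119.9 across NASH-fib. Cd14 rose by 2.46 ± 0.58 (adjusted p = 0.0119) with a model difference of -3.39 (95% interval -4.88 to -1.90). Clec4f had a log2 fold change of -6.75 without the second HSC library, -5.29 without the third HSC library and -5.40 without the third CCl4-fib library. Vsig4 had a log2 fold change of -5.10 without the first CCl4-fib library. Timd4 had a log2 fold change of -5.18 without the second NASH-fib library and -6.62 without the third NASH-fib library. Marco had a log2 fold change of -6.37 without the third NASH-fib library. Cd14 had a log2 fold change of 2.19 without the first HSC library and 2.20 without the second HSC library, where it was not called.

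A pooled call does not by itself mean that both injuries shared a change. Of the genes called higher, 145 had a NASH-fib log2 fold change under 1 and 51 a CCl4-fib log2 fold change under 1, and of those called lower, 166 and 38 had a fall of less than 1 in NASH-fib and CCl4-fib. The 4 called higher with the largest difference between the models were all CCl4-fib genes. Serpinb2, an inhibitor of plasminogen activators, had 0, 0 and 12 across HSCs, 466, 848 and 927 across CCl4-fib and 0, 0.89 and 0 across NASH-fib, with 1 read over the NASH-fib libraries and a ratio of CCl4-fib over NASH-fib of 2110.0 (95% counting interval 378 to 83373), and the test between the models passed (adjusted p = 0.00376). Cryaa, a lens crystallin, had 0 reads in HSCs and in NASH-fib and 81.8, 223 and 519 in CCl4-fib, at least 84.9-fold higher in CCl4-fib (adjusted p = 0.00264). Lgals7, a galectin of stratified epithelium, had 0 reads in HSCs and 332, 458 and 350.1 in CCl4-fib against 0, 2.67 and 2.95 in NASH-fib, a difference of -7.27 (95% interval -8.75 to -5.80) (adjusted p = 0.002). Calca, which encodes calcitonin and its gene-related peptide (NM_001289444, chr7:114631478-114636357), had 2 reads over the HSC libraries, 575, 1545 and 2382 in CCl4-fib against 8.16, 10.7 and 7.86 in NASH-fib, a difference of -7.03 (95% interval -8.41 to -5.65) (adjusted p = 0.002). Serpinb2 was not called higher in the pooled comparison without the first HSC library, and 6 of the 21 alternative settings did not keep its call.

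The 4 genes called lower with the largest difference encode enzymes that are abundant in hepatocytes, and all were higher in NASH-fib. Cyp4a12a, a fatty acid hydroxylase of male mouse liver, had 138, 67 and 1048 across HSCs, 0, 0 and 0 across CCl4-fib and 174, 29.4 and 517 across NASH-fib, at least 92.4-fold higher in NASH-fib than in CCl4-fib (adjusted p = 0.00863). Its near copy Cyp4a12b, whose reads cannot be told apart from it with certainty, had 65.5, 46.6 and 674 across HSCs, 0, 0 and 0 across CCl4-fib and 76.1, 14.2 and 159 across NASH-fib, at least 32-fold higher in NASH-fib than in CCl4-fib (adjusted p = 0.0131). Cyp4a10, a target of PPAR-alpha, had 223, 35 and 1141 across HSCs, 0, 0 and 0 across CCl4-fib and 158, 5.34 and 192 across NASH-fib, at least 45.5-fold higher in NASH-fib than in CCl4-fib (adjusted p = 0.028). Ugt3a2, a glycosyltransferase, had 321, 339 and 1113 across HSCs, 1.59, 1.7 and 0 across CCl4-fib and 500.2, 24.9 and 154 across NASH-fib, a difference of 6.05 (95% interval 3.90 to 8.19) (adjusted p = 0.00944). Cyp4a10 was not called lower in the pooled comparison without the first or the third HSC library. In all 4, and in the sum of the hepatocyte markers, the second NASH-fib library was the lowest of its group and the CCl4-fib libraries were the lowest of all. The part of the hepatocyte content in these calls was not tested, and neither was that of the sex of the mice.

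The labels carry a prefix whose meaning is not given in the sources used here, and some prefixes span groups. The prefix 11-3 held 1 library of each group, and the 1578 genes called higher and the 1187 called lower all kept their direction there, with medians of 3.23 and -2.46. Within 11-4, which held 1 HSC and 1 CCl4-fib library, 1548 and 1180 kept it, with medians of 3.27 and -3.04. These libraries are among those that made the calls. With the prefix as a block, the calls lost were those of Gata6, Plin4, Lpl, Plod2, Birc5, Tyms, Kdelr3, Sec61a1, Cd14, Serpinb2, Cryaa, Pnpla3, Postn, Loxl4, Adamts1, Foxf1, Cxcl16, Serpina3k, Cyp4a12a, Cyp4a12b, Cyp4a10 and Alb. With 1 mean for all fibroblasts they were those of Lpl, Birc5, Tyms, Kdelr3, Sec61a1, Cd14, Serpinb2, Cryaa, Lgals7, Calca, Adamts1, Cxcl16, Serpina3k, Cyp2e1, Cyp4a12a, Cyp4a12b, Cyp4a10, Ugt3a2 and Alb.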

How the data were processed

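RNA-seq was performed on 9 libraries of mouse liver cells, 3 per group, taken from the labels. The authors aligned single-end reads from SMARTer Ultra Low Input libraries to mm10 with STAR. They counted reads over exons with HOMER without regard to strand and with at most 3 reads per position. By their account the counts were normalised with DESeq2 on 10 libraries, of which 9 are columns here. These 9 columns each sum to nearly the same total (4471988 to 4471995), so the values are scaled to a common total. The deposited values are a normalised signal per gene, namely read counts times 1 factor per library and not corrected for length. Whole reads were recovered for 100% of values (tolerance 0.1), giving depths of 3071070 to 5634273 reads. As these values are scaled, the main test was limma 3.58.1 (R 4.3.3) on log2(value + 1), with a trend in the prior spread, in 1 fit over 3 groups. Genes passed filterByExpr of edgeR 4.0.16 (minimum count 10) on the recovered reads. The contrasts were the mean of both fibroblast groups minus HSC and NASH-fib minus CCl4-fib. Libraries hold pooled animals, and p-values measure the spread between pools. Counting intervals (95%) and floors of 3 reads per library cover counting error only, and reads of PCR-amplified cDNA are not independent molecules.

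Named genes were, in each direction, the 8 called genes with the widest gap between the groups, up to 3 per gene list, a fixed set, the 5 with the widest gap whose model difference lay within 1 log2 unit, and the 4 with the largest model difference. A few genes of the lists are counted but not reported here by name. The members and gene lists were chosen with earlier results of these data known, and the lists are no independent evidence. Alternatives were edgeR quasi-likelihood and DESeq2 1.42.0 tests on the recovered reads, upper-quartile scaling, other filters, pseudocounts of 0.25 and 5, no trend, 1 fibroblast mean, blocks on replicate number and label prefix, and each library left out. The fit without both the second HSC and the first NASH-fib library was added after the data were seen. The code was tested on simulated data, in which 189 of 13343 tested genes were given a log2 change of 2 in either direction. It called 19.6% of them, and 5.13% of all its calls were false. In the data far more genes were called (2765), and the Benjamini-Hochberg limit depends on the share of genes that change. The 19.6% is therefore not the recovery of the reported comparison. A gene that was not called is still not shown to be unchanged. Promoter windows are RefSeq sequences of GRCm38.p6, at hand for 78.8% of tested genes, so a comparison of motif shares between gene sets is void.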

Additional observations from a re-analysis of the deposited data

Results flagged for a closer look

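Among the 121 genes picked to be named, 8 had 1 of the 6 fibroblast libraries far from the other 5, its gap divided by the range of the 6 exceeding Dixon's 95% critical value. Chance alone marks about 1 in 20 groups. The first NASH-fib library was the low one in 5 of them, with a share of 0.782 for Mfap4, 0.817 for Tgfb3, 0.732 for Cd34, 0.712 for Ptn and 0.636 for Timp1. The same library also had the lowest values of its group for Des and Pdgfrb. The others were the third CCl4-fib library for Vipr1 (0.747), the third NASH-fib library for Cyp1a2 (0.655) and the third NASH-fib library for Egfem1 (1), the last through a single read.

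For 31 of the genes named the test between the models (limma, adjusted p under 0.05 and a difference of at least 1) found unequal changes from HSCs in NASH-fib and CCl4-fib. All differences are log2 values, NASH-fib minus CCl4-fib. Among matrix and adhesion genes they were -1.25 for Col1a1, -1.39 for Col1a2, -2.87 for Loxl1, -1.30 for Lamb1 and -2.19 for Cdh11. Genes of the cell cycle and secretory pathway gave -2.21 for Birc5, -2.49 for Tyms, -2.18 for Kdelr3 and -2.74 for Sec61a1, and the inflammatory genes -2.40 for Ccl7 and -3.39 for Cd14. The genes that were high in CCl4-fib alone had -9.18 for Serpinb2, -7.73 for Cryaa, -7.27 for Lgals7 and -7.03 for Calca. Higher in NASH-fib were 2.33 for Ebf1, 1.62 for Bmp5, 1.26 for Tcf4 and 2.13 for Abcc9, whereas Kcnj8 was lower (-1.47). Markers of other cells gave 4.53 for Cdh5, 3.05 for Stab2, 4.94 for Vsig4, 3.30 for Ptprc, 3.08 for Alb, 3.85 for Serpina3k and 4.01 for Cyp2e1, and other genes of hepatocytes 7.13 for Cyp4a12a, 6.05 for Ugt3a2, 5.85 for Cyp4a10 and 5.84 for Cyp4a12b. Where every library of a model had at most 3 reads, as for Cryaa, Serpinb2, Lgals7, Cyp4a12a, Cyp4a12b, Cyp4a10 and Ugt3a2, the fitted difference depends on the pseudocount and is no bound. The summed levels of the hepatocyte, sinusoidal endothelial and macrophage markers were higher in every NASH-fib than in every CCl4-fib library, and their part in these differences was not tested.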

How the results depend on the processing

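No gene called in the pooled comparison changed direction under any of the 21 alternatives. The main counts were 1578 higher, 1187 lower and 628 that also differed between the models. Restricting the test to genes with a mean value of at least 100 gave 709, 670 and 334, since fewer genes were tested. The label prefix as a block gave 870, 470 and 186, and 1 mean for all fibroblasts gave 1134 higher and 738 lower, and the cause was not tested. DESeq2 gave 1816 higher, 1519 lower and 1183 that differed. With 1 library left out the counts ranged from 1251 to 2385 higher, from 854 to 1519 lower and from 137 to 648 that differed, the highest count of genes called higher without the first NASH-fib library. The replicate numbers do not pair the libraries (correlations of deviations between same-numbered libraries ran from -0.47 to 0.51), and the replicate block gave 1441 higher and 1078 lower and 448 that differed. The other settings, among them edgeR with 1370 higher and 1306 lower and an absent filter with 1757 higher and 1215 lower, stayed within 1.5 times the main counts. Of the 121 genes picked to be named, 26 lost and 2 gained their call in at least 1 setting. Depth limits genes near 3 reads per library, where only a bound on the fold can be given, and the limit on reads per position can compress the most abundant short transcripts.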
